A study of Mus musculus with 2 samples.

Results

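Of the 38926 gene symbols listed for each library, 10 were followed here: the tendon genes Scx, Mkx, Tnmd, Fmod, Thbs4, Comp and Cilp and the sclerotome genes Nkx3-2, Pax1 and Pax9. They were taken by symbol, and all 10 were found in both libraries. RNA came from pleuroperitoneal folds (PPFs), paired folds of the embryonic trunk that supply the connective tissue of the diaphragm, dissected from wild type mouse embryos at embryonic day 12.5. The mice were of mixed 129s/SvlmJ-C57/BL6J background, no allele or treatment is named, and the single group holds 2 libraries, replicates 1 and 2, each pooled from 2 PPF pairs. The profile was made to help rank candidate genes for human congenital diaphragmatic disease. The submitters call the libraries biological replicates, and no label ties either to a litter, so the spread between them may be partly technical.

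Tendon progenitors of the trunk arise at the edge of the sclerotome, the part of the somite that forms vertebrae and ribs. Scx, a basic helix-loop-helix transcription factor, marks these progenitors from early on. Mkx, a homeobox factor, and Tnmd, a transmembrane glycoprotein, are known for the later maturation of tendon cells. Pax1, Pax9 and Nkx3-2 are transcription factors of the ventral sclerotome that depend on Hedgehog signals from notochord and floor plate.

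The PPFs held RNA of 6 of the 7 tendon genes at 1 TPM or more in both libraries, and of 0 of the 3 sclerotome genes. TPM divides a gene's count by its exon length and brings every library to a common total. Among protein-coding symbols the share at or above this level was 63.5%, and among all listed symbols 44.4%. Scx and Fmod stood about an order of magnitude above the other tendon genes. The median level was 6.99 TPM in replicate 2 and 8.54 TPM in replicate 1 for the tendon genes. For the sclerotome genes it was 0.0544 TPM in replicate 2 and 0.105 TPM in replicate 1. Over all 21411 protein-coding symbols the median was 7.85 TPM in replicate 2 and 7.52 TPM in replicate 1. In such bulk tissue, fewer cells of a type and less RNA per cell cannot be told apart.

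**Figure D1:**
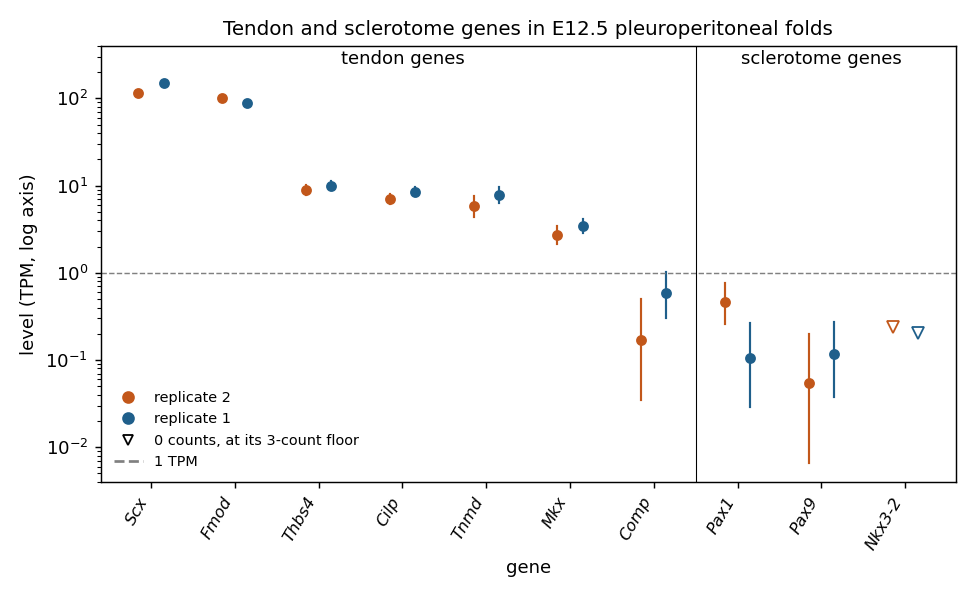
Level of each member in TPM (log axis) in replicate 2 and replicate 1. Vertical lines are exact 95% Poisson intervals of the counts, the dashed line is 1 TPM, and open triangles mark Nkx3-2, which had 0 counts, at its 3-count floor. The tendon genes span from Scx at 115 and 149 TPM down to Comp at 0.170 and 0.583 TPM, and the sclerotome genes all lie below 0.5 TPM.

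Positions are those of GENCODE M21 on build GRCm38 unless called deposited. Scx (chromosome 15, 76457452 to 76459458, plus strand, 1 merged exon) had 951 counts in replicate 2 and 1437 in replicate 1. Per length this gave 115 TPM in replicate 2 (95% Poisson interval 108 to 123) and 149 TPM in replicate 1 (141 to 157), a mean of 132 ± 24.0 TPM (SD, n = 2). Its level lay above that of 94.3% of protein-coding symbols. The gene lies within Bop1, a ribosome assembly gene on the opposite strand (112 TPM in replicate 2 and 114 TPM in replicate 1), and the annotated exons of the genes share 0% of bases. Whether Bop1 intron reads entered the Scx count was not tested.

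Mkx was counted 77 times in replicate 2 and 114 times in replicate 1, a level of 2.74 TPM in replicate 2 and 3.47 TPM in replicate 1 (mean 3.10 ± 0.520 TPM, SD, n = 2). Per length, Scx exceeded Mkx 42.1-fold in replicate 2 and 42.9-fold in replicate 1. The deposited gene model of Mkx (chromosome 18, 6910459 to 6936621, 3870 exon bases) differs from that of GENCODE M21 (6934518 to 7004780, minus strand, 4095 exon bases). Which Mkx exons were counted is therefore uncertain, and its level may not be comparable with those of the other members.

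Fmod encodes fibromodulin, a small leucine-rich proteoglycan that binds collagen fibrils (chromosome 1, 134037254 to 134048277, plus strand, 3 merged exons). It had the most counts of the members, 2460 in replicate 2 and 2476 in replicate 1. Its level was 102 TPM in replicate 2 (95% Poisson interval 98.4 to 106) and 88.3 TPM in replicate 1 (84.8 to 91.8), a mean of 95.3 ± 9.97 TPM (SD, n = 2). Scx and Fmod together made up 89.8% and 88.6% of the summed TPM of the 7 tendon genes in replicates 2 and 1.

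Tnmd encodes tenomodulin (chromosome X, 133850980 to 133865577, plus strand). It had 57 counts in replicate 2 and 90 in replicate 1, which gave 5.80 TPM in replicate 2 and 7.84 TPM in replicate 1 (mean 6.82 ± 1.45 TPM, SD, n = 2). Per length, Scx exceeded Tnmd 19.9-fold in replicate 2 and 19.0-fold in replicate 1. The ratio of the early regulator to this later tendon gene thus had close values in both libraries, and both genes had a lower value in replicate 2. The 95% Poisson intervals of Tnmd were wide, 4.39 to 7.51 TPM in replicate 2 and 6.30 to 9.64 TPM in replicate 1. How closely the ratio agrees between the libraries is therefore uncertain.

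Thbs4 and Comp encode thrombospondins, secreted multimeric glycoproteins of tendon, muscle attachments and cartilage. Thbs4 (chromosome 13, 92751590 to 92794818, minus strand, 22 merged exons) stood at 8.91 TPM in replicate 2 and 9.998 TPM in replicate 1, from 213 and 279 counts. Comp (chromosome 8, 70373558 to 70382066, plus strand, 20 merged exons) was the single tendon gene under 1 TPM, with 3 counts in replicate 2 (0.170 TPM) and 12 in replicate 1 (0.583 TPM). Its Poisson intervals reached 0.497 TPM in replicate 2 and 1.02 TPM in replicate 1, so the depth limits what can be said of it.

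Cilp encodes a secreted protein of the cartilage intermediate layer that binds Tgf-beta (chromosome 9, 65265180 to 65280605, plus strand). From 216 counts in replicate 2 and 308 in replicate 1, its level was 6.99 TPM in replicate 2 and 8.54 TPM in replicate 1. Cilp, Thbs4 and Tnmd all lay near the middle of the protein-coding symbols, above 50.03%, 52.1% and 48.8% of them.

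The 3 sclerotome genes were at or near the limit of detection. Pax1 (chromosome 2, 147361925 to 147393295, plus strand) had 15 counts in replicate 2 (0.459 TPM, 95% Poisson interval 0.257 to 0.758) and 4 in replicate 1 (0.105 TPM, 0.0286 to 0.269). Its paralogue Pax9 (chromosome 12, 56691767 to 56712822, plus strand) had 2 counts in replicate 2 (0.0544 TPM) and 5 in replicate 1 (0.117 TPM). Nkx3-2 (chromosome 5, 41761483 to 41764501, minus strand) had 0 counts in either library. A floor of 3 counts per library lay at 0.241 TPM in replicate 2 and 0.206 TPM in replicate 1. The 95% Poisson intervals of Nkx3-2 reached 0.296 TPM in replicate 2 and 0.254 TPM in replicate 1. All 3 together had 17 counts in replicate 2 and 9 in replicate 1.

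Pax1 and Pax9 overlap neighbours that could add or remove reads if strand was not used in counting. The antisense AI646519, which shares 4.07% of the Pax1 exon bases, had 0 counts in both libraries, as did Gm15524 at the start of Pax9. Slc25a21, which shares 3.74% of the Pax9 exon bases at its end, had 8 counts in replicate 2 and 3 in replicate 1.

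By mean TPM the order was Scx, Fmod, Thbs4, Cilp, Tnmd, Mkx, Comp, Pax1, Pax9 and Nkx3-2. Of the 9 neighbouring pairs, 5 did not overlap between the libraries, with a level under the floor of 3 counts taken at the floor. The 4 pairs that overlapped were Cilp with Tnmd, Comp with Pax1, Pax1 with Pax9, and Pax9 with Nkx3-2. Of the 5 pairs that did not overlap, 3 reversed when length was left aside: Scx with Fmod, Thbs4 with Cilp, and Tnmd with Mkx. The overlapping pair Comp and Pax1 reversed too. This order compares values and leaves counting error aside. The 95% Poisson intervals of Thbs4 and Cilp overlapped in replicate 2 (7.75 to 10.2 against 6.09 to 7.99 TPM). They also overlapped in replicate 1 (8.86 to 11.2 against 7.61 to 9.55 TPM). As CPM, Fmod (106 in replicate 2 and 93.9 in replicate 1) lay above Scx (40.9 in replicate 2 and 54.5 in replicate 1). The deposited exon length is 1136 bases for Scx and 3306 for Fmod, while GENCODE M21 merges the Scx transcripts into 2007 bases. At the same counts a longer Scx length would lower its TPM. Its place above Fmod and its level ratios to other genes therefore rest on the deposited length.

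Promoters are shown for the most counted member (Fmod), the tendon gene with the most E-boxes (Cilp) and a sclerotome gene (Pax9). RefSeq (GRCm38.p6) gave entries for 7 of the 10 members, with none for Scx, Mkx and Comp. Printed are the 250 bases before the RefSeq start, 5′ to 3′ on the gene's strand, for windows that hold no annotated exon base. They are chr1:134037004-134037253 (plus) for Fmod, chr9:65264930-65265179 (plus) for Cilp and chr12:56695221-56695470 (plus) for Pax9. Capitals mark E-boxes, the CANNTG words bound by basic helix-loop-helix factors such as Scx. A CANNTG match on either strand is a match on the other too, though the middle bases can differ.
Fmod: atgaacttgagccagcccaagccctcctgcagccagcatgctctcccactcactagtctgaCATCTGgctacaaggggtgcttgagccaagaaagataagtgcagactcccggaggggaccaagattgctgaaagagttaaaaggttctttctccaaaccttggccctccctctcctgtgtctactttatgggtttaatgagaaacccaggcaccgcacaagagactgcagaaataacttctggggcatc
Cilp: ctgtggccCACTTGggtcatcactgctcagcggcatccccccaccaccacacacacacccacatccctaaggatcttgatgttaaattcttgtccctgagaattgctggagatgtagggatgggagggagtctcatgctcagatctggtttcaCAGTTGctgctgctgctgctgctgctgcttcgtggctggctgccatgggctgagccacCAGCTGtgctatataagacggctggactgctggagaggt
Pax9: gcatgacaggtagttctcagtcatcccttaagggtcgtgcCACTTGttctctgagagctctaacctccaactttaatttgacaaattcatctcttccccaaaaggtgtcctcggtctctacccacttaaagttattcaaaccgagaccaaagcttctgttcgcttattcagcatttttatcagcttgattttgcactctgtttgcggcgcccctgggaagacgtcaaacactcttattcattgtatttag

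The windows did not all lie upstream of the annotated gene. Those of Fmod, Cilp and Thbs4 ended at the GENCODE start, while those of Pax1, Pax9 and Nkx3-2 lay wholly inside the gene. The Nkx3-2 window was all exonic, and 28 of the 250 bases of the Tnmd window were.

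Cilp held 3 E-boxes and Fmod and Pax9 held 1 each. Among the members without a printed sequence, Thbs4 and Nkx3-2 had 1 each, and Tnmd and Pax1 had 0. Of all 32851 promoter windows of this length 66.2% held at least 1, so 5 of 7 members is near the share among all genes. CpG dinucleotides differed more: there were 2 in Fmod and Tnmd and 3 in Cilp, against 19 in Thbs4, 21 in Nkx3-2, 10 in Pax1 and 7 in Pax9. The median over all windows was 6, with quartiles of 2 and 16. These matches describe letters in a window, not sites that are used.

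Related genes showed where each member stood in its family. Among thrombospondins, Thbs4 and Comp held 4.12% and 0.0788% of the summed TPM in replicate 2, and 4.90% and 0.286% in replicate 1. The family was led by Thbs1 (87.8 ± 24.7 TPM), Thbs2 (68.9 ± 14.5 TPM) and Thbs3 (43.5 ± 0.703 TPM) (SD, n = 2). Thbs4 reached 0.152 of the Thbs2 level in replicate 2 and 0.126 in replicate 1.

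Fmod ranked 5 of 12 small leucine-rich proteoglycan genes by mean level, behind Lum (572 ± 54.2 TPM), Dcn (550 ± 16.0 TPM), Bgn (263 ± 9.35 TPM) and Ogn (203 ± 4.16 TPM). It reached 0.168 of the Lum level in replicate 2 and 0.165 in replicate 1. Scx ranked 2 of 8 related helix-loop-helix genes, at 0.647 of the level of Twist1, a mesenchymal regulator, in replicate 2 and 0.690 in replicate 1. Per length Scx exceeded its somitic relative Tcf15 (paraxis) 7.81-fold in replicate 2 and 7.80-fold in replicate 1.

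Mkx lay below Irx3 (6.51 ± 0.323 TPM) and near Irx1 (2.66 ± 0.177 TPM) and Irx5 (2.46 ± 0.404 TPM) among its homeobox relatives. Tnmd exceeded its cartilage paralogue, listed under the older symbol Lect1, 2.10-fold in replicate 2 and 3.61-fold in replicate 1. Cilp exceeded Cilp2 4.38-fold in replicate 2 and 4.66-fold in replicate 1. Of 9 Pax genes, Pax1 and Pax9 stood below the muscle progenitor genes Pax7 (23.0 ± 3.49 TPM) and Pax3 (3.77 ± 0.165 TPM).

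**Figure D2:**
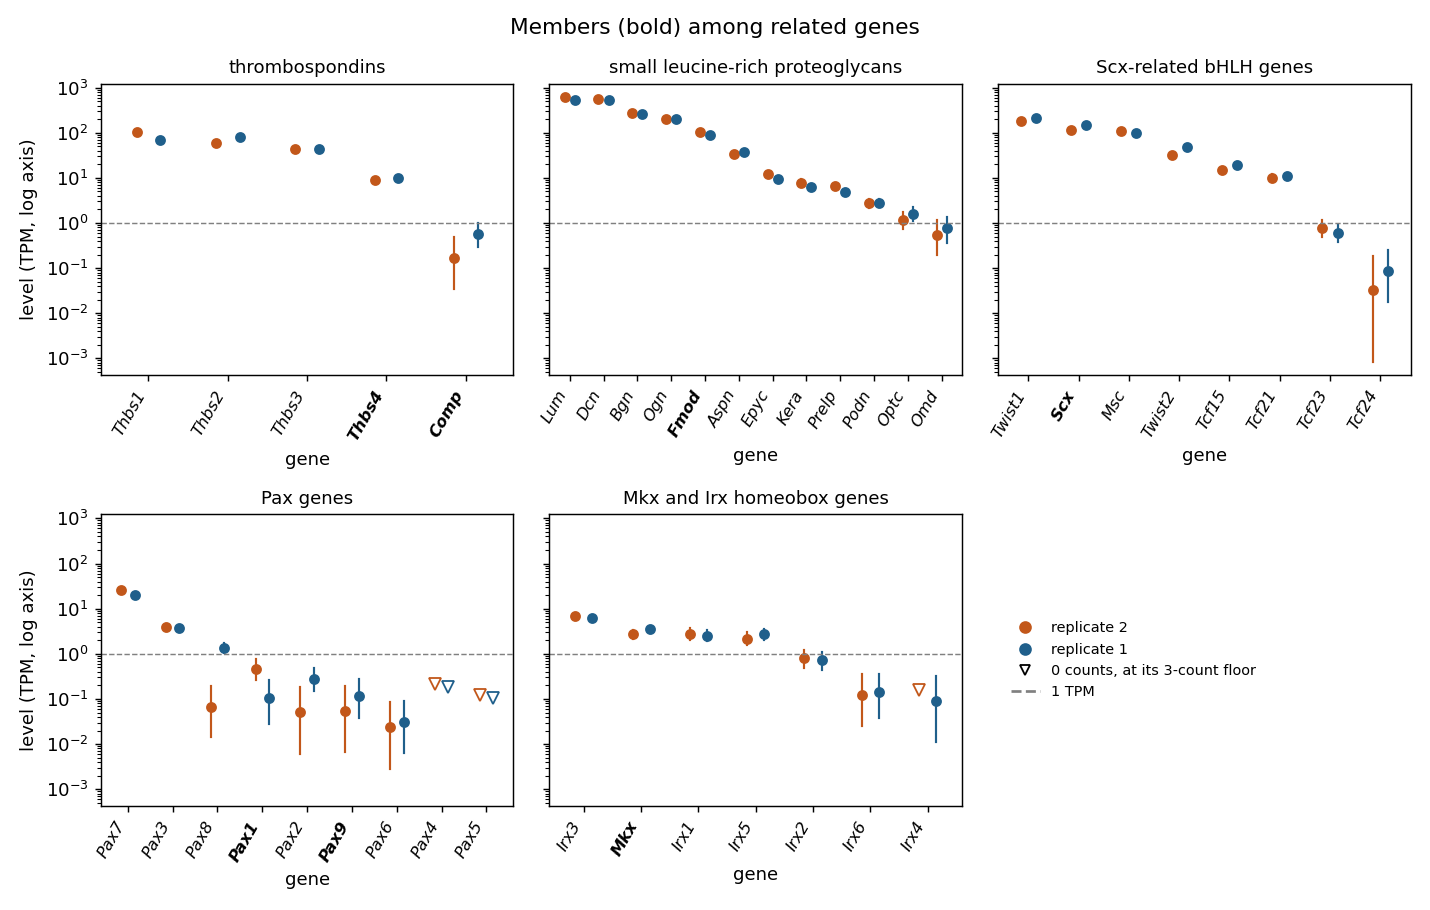
Members (bold) among related genes, as TPM (log axis) in replicate 2 and replicate 1 with 95% Poisson intervals of the counts. The dashed line is 1 TPM, and open triangles mark libraries with 0 counts at the 3-count floor. Thbs4 and Comp are the lowest thrombospondins, Fmod stands behind Lum, Dcn, Bgn and Ogn, Scx stands behind Twist1, and Pax1 and Pax9 lie under 0.5 TPM.

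Other genes of tendon development were present, to be read beside the 63.5% of protein-coding symbols at 1 TPM or more in both libraries. Of 20 tendon signals and regulators, 17 were at 1 TPM or more in both libraries (median 33.1 TPM in replicate 2 and 35.04 TPM in replicate 1). They were led by Tgfb3 (254 ± 9.83 TPM) and Tgfb2 (237 ± 8.42 TPM), ligands known to be needed for tendon progenitors, and Nfatc4 (136 ± 0.815 TPM). Egr2, an early growth response factor, and Fgf8, a somitic Fgf ligand, were lowest at 0.399 ± 0.123 and 0.233 ± 0.0411 TPM. All 22 matrix genes of tendon and muscle connective tissue were at 1 TPM or more, from Col24a1 (5.38 ± 0.563 TPM) and Col22a1 (5.59 ± 0.151 TPM), a collagen of muscle-tendon junctions, up to the collagen I and III genes.

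Outside the members, sclerotome and cartilage genes did not share one level. Of 18 somite and sclerotome patterning genes, 10 were at 1 TPM or more in both libraries, a smaller share than the 63.5% of protein-coding symbols. They were led by Twist1 (197 ± 26.8 TPM), Meox1 (70.1 ± 3.59 TPM) and Foxc1 (47.1 ± 4.11 TPM). Shh, the ligand on which Pax1 and Nkx3-2 depend in the sclerotome, had no count in either library, with floors of 0.153 TPM in replicate 2 and 0.131 TPM in replicate 1. The Hedgehog pathway genes Ptch1 and Gli1 of the same list were present. Ptch1 stood at 18.9 TPM in replicate 2 and 14.6 TPM in replicate 1, and Gli1 at 21.3 and 21.6 TPM. Whether the folds received a Hedgehog signal was not tested. Of 19 cartilage genes, 15 were at 1 TPM or more, a larger share than among protein-coding symbols. Highest were Col11a1 (102 ± 24.5 TPM), Col9a2 (62.9 ± 8.34 TPM) and Col9a3 (33.6 ± 11.4 TPM). Acan, the aggrecan gene of differentiated cartilage, had 2 counts in each library, and Matn1 had 0 counts. Sox9, the cartilage regulator, and Col2a1, chosen after their values were seen, stood at 31.1 ± 8.56 and 19.2 ± 3.40 TPM (SD, n = 2), above every sclerotome member in both libraries.

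**Figure D3:**
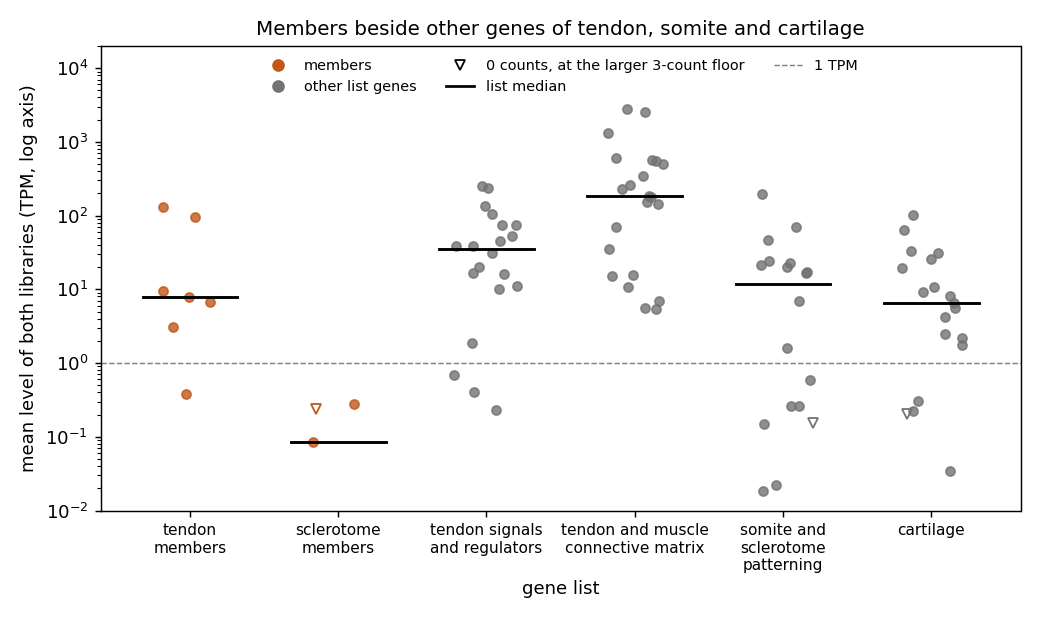
Mean level of both libraries in TPM (log axis) for every gene of 6 lists, members in colour and other genes in grey. Black bars are list medians, the dashed line is 1 TPM, and open triangles mark genes with 0 counts at the larger of their per-library floors. The sclerotome members lie below 1 TPM, while most cartilage and somite genes lie above it.

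How far the libraries differed in the members was then asked. An exact two-sided binomial test compared the counts of replicate 2 with those of replicate 1, with Benjamini-Hochberg adjustment over the 19433 genes whose counts summed to 10 or more. It sets one library against the other, bears on no condition, and allows for no noise beyond that of counting. Of the 8 members with enough counts, 1 was lower in replicate 2 at an adjusted p under 0.05 (8.65% of all tested genes) and 2 were higher (8.85%). One of these 3 differed by at least 2-fold (1.26%). Pax9 and Nkx3-2 had too few counts to be tested.

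Scx was lower in replicate 2: its log2 ratio was -0.41, with a 95% interval of -0.53 to -0.29 and an exact binomial adjusted p = 3.42e-10. Fmod was higher in replicate 2, at a log2 ratio of 0.17 with an interval of 0.094 to 0.26 and an exact binomial adjusted p = 0.000325. The most abundant members thus differed in opposite directions, and the Scx to Fmod level ratio was 1.13 in replicate 2 and 1.69 in replicate 1. Pax1, with 15 counts against 4, was higher in replicate 2 by 1.96 on the log2 scale, with an interval of 0.44 to 4.14 and an exact binomial adjusted p = 0.0341.

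The other tested tendon genes had lower values in replicate 2 without passing the test. Their log2 ratios were -0.47 for Tnmd (exact binomial adjusted p = 0.197), -0.38 for Mkx (0.252), -0.33 for Cilp (0.0598), -0.20 for Thbs4 (0.332) and -1.67 for Comp (0.156). In all, 6 of the 8 tested members had a lower value in replicate 2, against 53% of all tested genes. The median log2 ratio was -0.38 over the 7 tendon genes and -0.014 over all tested genes.

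No member passed once an estimated spread was added to the counting error. In edgeR's exact test with a common dispersion fitted over all genes, 0 of 8 members had an adjusted p under 0.05 (0.751% of all tested genes). At an unadjusted p under 0.05 there were 2 of 8, Pax1 and Scx (5.24% of all tested genes). The dispersion came from the same 2 libraries, so the differences under test are part of the spread they are judged by. The edgeR adjusted p was 0.624 for Scx, 1 for Fmod and 0.548 for Pax1.

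**Figure D4:**
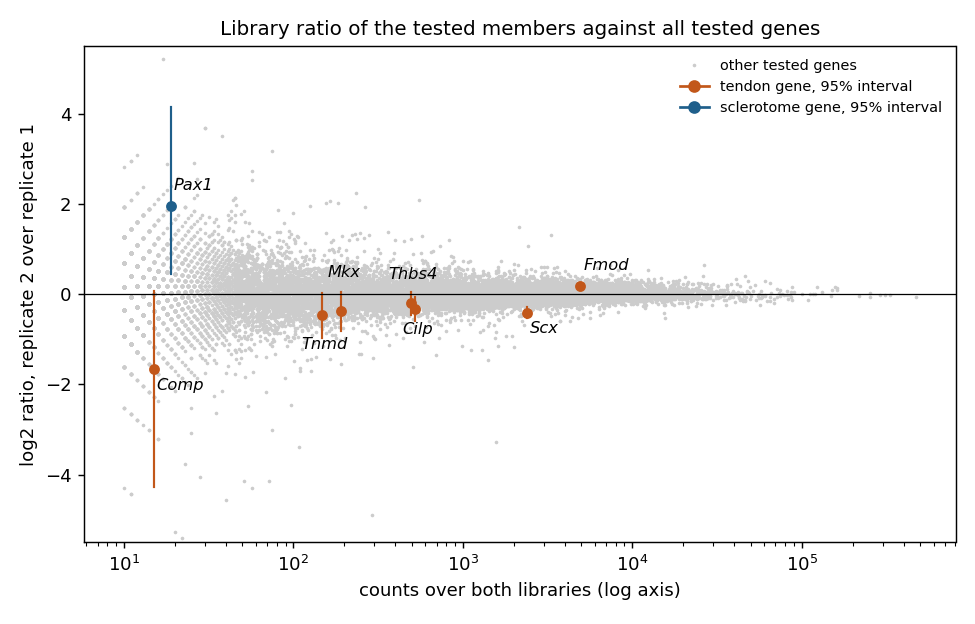
Log2 ratio of replicate 2 over replicate 1 against the counts over both libraries (log axis) for the 8 tested members, with exact 95% intervals, and for all tested genes in grey. Scx lies at -0.41 and Fmod at 0.17, while the intervals of Tnmd, Mkx, Thbs4 and Comp include 0.

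Other gene lists were compared by the same exact binomial test, which counts 8.85% of all tested genes as higher and 8.65% as lower in replicate 2. Of 19 tested tendon signals and regulators, 2 were higher and 4 lower (median log2 ratio 0.023), and of 22 matrix genes 7 were higher and 5 lower (median 0.027). Neither median lay near the -0.38 of the tendon members, but that of 7 tested Scx-related helix-loop-helix genes, Scx included, was -0.32. Of those 7 genes, 3 passed as lower in replicate 2 and 0 as higher. The 3 were Scx, Twist1 and Twist2 (log2 ratios of the Twist genes -0.32 and -0.63, exact binomial adjusted p = 8.04e-13 and 2.87e-08). Without passing, Tcf15 and Tcf21 had lower values (-0.41 and -0.13), while Msc and Tcf23 had higher ones (0.12 and 0.31). Among thrombospondins, Thbs2 was lower while Thbs1 was higher (-0.47 and 0.54). Of 16 tested cartilage genes, 7 passed as higher in replicate 2 and 2 as lower, at a median log2 ratio of 0.29. Those higher included Sox9 at 0.53 and Col9a3 at 0.67, and those lower were Col11a1 at -0.53 and Runx2 at -0.74.

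By that test, which allows for counting error alone, hepatoblast markers were higher in replicate 2 in 11 of 14 cases with none lower, with a summed level of 372 TPM in replicate 2 and 156 TPM in replicate 1. Neuronal markers were higher in 10 of 12 cases with none lower (125 TPM in replicate 2 and 72.6 TPM in replicate 1). Mesonephros and gonad markers were lower in 7 of 11 cases with none higher (18.9 TPM in replicate 2 and 40.6 TPM in replicate 1), and of the whole list Cdh16 had 0 counts in replicate 2 and Nr5a1 had 0 in replicate 1. Of 12 skeletal muscle markers, all at 1 TPM or more, 3 passed as higher and 1 as lower in replicate 2 (5681 TPM in replicate 2 and 5562 TPM in replicate 1). The part of these tissues in the member ratios was not tested.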

How the data were processed

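Per the labels' protocols, polyadenylated RNA was made into strand-marking libraries. The tools named per the submitters' processing notes are featureCounts, STAR 2.4.0a and SAMtools 1.3, with the build mm9. No source used here states the strand setting of the counting. The deposited files hold raw gene counts, which the authors left unnormalised, and TPM, which the authors computed. Deposited TPM equalled count over exon length, scaled to 1000000, within 4.73e-11. Counts summed to 23255957 (replicate 2) and 26370253 (replicate 1).

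Of 35656 symbols shared with GENCODE M21 (GRCm38), 22482 had an identical exon length. Of these, 99.9% had the same start but 83.4% the same end, so the deposited starts follow GRCm38 and disagree with the build named. Member positions are those of GENCODE M21 unless called deposited.

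The members and gene lists were chosen with earlier results of these data known. All 10 members are named. From each list the 3 highest and 2 lowest genes by mean TPM could be named, or all where it has 9 or fewer. Genes that differed at least 2-fold between libraries could be named too, and other names were chosen after seeing values. With 2 libraries no gene can be matched to a member's pattern.

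Intervals of single counts are exact Poisson, those of ratios exact Clopper-Pearson, all at 95%. A count of 0 was read against a floor of 3 counts per library. Both cover counting error only, since without molecular identifiers 1 molecule can give several reads. A prior count of 0.5 was added before ratios were taken, and libraries were scaled with the TMM factors of edgeR 4.0.16 (0.9989 in replicate 2 and 1.0011 in replicate 1). The quasi-likelihood test of edgeR could not be fitted without residual degrees of freedom. Alternatives were DESeq2 1.42.0 size factors, library totals, count filters, TPM without features under 200 bp, and edgeR's exact test. The script was tested on simulated data with counting error alone, which cannot show how the binomial test behaves when libraries differ by more than that.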

Additional observations from a re-analysis of the deposited data

How the results depend on the processing

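No paired analysis was possible because the series holds 1 group. Under edgeR's exact test with the common dispersion, 0 of 8 tested members differed between the libraries, and 0 by at least 2-fold, against 3 and 1 under counting error alone, while over all tested genes 146 differed, against 3399. With at least 100 counts required, Pax1 and Comp were no longer tested and 0 members differed by at least 2-fold. Cilp then passed (log2 ratio -0.33, exact binomial adjusted p = 0.0462) beside Scx and Fmod. These were 3 of 6 tested members, where 24.4% of all 14093 tested genes passed. A correction of the ratios for gene length and GC content, chosen after seeing the data, left 3 of 8 members past the test (13.6% of all genes with a GC value), against 3 of 8 without it (17.5% of all tested genes), with Scx at -0.28 (exact binomial adjusted p = 0.000113). Without features under 200 bp, mean Fmod rose from 95.3 to 106 TPM and mean Thbs4 from 9.45 to 10.6 TPM. Other members rose too, such as Scx from 132 to 147 TPM and Cilp from 7.76 to 8.67 TPM. With either library left out, the tendon median was 6.99 to 8.54 TPM and the sclerotome median 0.0544 to 0.105 TPM. In either library alone 6 members reached 1 TPM, and in both libraries 6 reached 0.5 TPM and 5 reached 5 TPM. At this depth, levels of Comp and the sclerotome genes rest on 0 to 15 counts per library.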

Other observations

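Foxd1, a forkhead gene of kidney stroma that stands in the somite and sclerotome patterning list, had 8 counts in replicate 2 (0.447 TPM) and 285 in replicate 1 (13.6 TPM). Its log2 ratio was -4.89 (exact binomial adjusted p = 2.56e-63). Without it, the 14 other tested genes of that list had none that differed by 2-fold. The nephric regulators Pax8 (3 counts in replicate 2 and 69 in replicate 1) and Lhx1 (2 counts in replicate 2 and 23 in replicate 1) had log2 ratios of -4.14 and -3.07, and no member of the tendon and sclerotome genes had a ratio of this size.

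Cartilage collagen and regulator genes stood beside near-absent sclerotome genes. Per length, Scx exceeded Sox9 3.10-fold in replicate 2 and 5.95-fold in replicate 1, and Col2a1 5.33-fold in replicate 2 and 8.88-fold in replicate 1.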
